A study of Homo sapiens with 12 samples.

Results

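The 6 genes described here are the aldo-keto reductases AKR1B1, AKR1B10, AKR1C1, AKR1C2 and AKR1C3 and the aldehyde dehydrogenase ALDH3A1. They were chosen by name with their values in all 4 groups of these arrays known, so their differences between groups are given as a description, and each was read from the probe sets whose only gene symbol is that gene. On that rule 5 of the 6 genes were measured, among 18377 genes in all, and AKR1B1 was not analysed here. The cells were HT29, an established human colon adenocarcinoma line described as sensitive to methotrexate, an antifolate that blocks dihydrofolate reductase. The 12 arrays form 4 groups of 3: untreated control cells, taken as 0 h, and cells kept for 8 h, 24 h or 48 h with 70 nM methotrexate. All 4 groups share the line and the medium, F12 with fetal bovine serum. The sample titles call the replicates of a group biological. No untreated array from 8, 24 or 48 h was used, so methotrexate and time in culture cannot be told apart in any comparison with control.

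Aldo-keto reductases are soluble enzymes that use NADPH to reduce aldehydes and ketones to alcohols, on substrates as different as lipid peroxidation products, sugars, steroids, prostaglandins and drugs. ALDH3A1 works in the other direction on aldehydes, oxidising them to acids. Both families are known in epithelial tumours as enzymes that remove reactive carbonyls. Genes of both are known targets of the transcription factor NRF2, encoded by NFE2L2, and ALDH3A1 is also a known target of the aryl hydrocarbon receptor.

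The deposited values are log2 ratios to the median of the 3 control arrays. A value of 0 is the control median of that gene, and levels cannot be compared between genes. Differences between groups were taken from a limma fit to all 12 arrays, with moderated standard errors (SE). Each of the 5 measured genes had a single probe set. The median difference over all 18377 genes was between -0.01 and 0.02 in all 6 comparisons, and the median SE of a difference was 0.07. The root mean square deviation of an array from its group mean over all genes lay between 0.0587 and 0.127, and 48 h replicate 3 had the highest. In RNA from bulk cultures, fewer cells of a type and less RNA per cell cannot be told apart.

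AKR1B10, which reduces retinal and reactive aldehydes and is abundant in normal gut epithelium, had the widest swing of the 5 genes. It was 2.88-fold higher than control after 8 h and 1.95-fold lower than control after 48 h, with a value close to control in between. Its probe set (8136336) read 0.23, 0.00 and -0.08 on the control arrays and 1.65, 1.52 and 1.56 at 8 h. The arrays at 24 h read 0.18, 0.24 and 0.26, and those at 48 h read -1.02, -0.74 and -1.0. All 3 arrays at 8 h therefore lay above every other array, all 3 at 48 h lay below every other array, and the 24 h arrays overlapped the controls through control replicate 1. The group means were 0.05 ± 0.16 for controls, then 1.58 ± 0.07 at 8 h, 0.22 ± 0.04 at 24 h and -0.92 ± 0.16 at 48 h (SD, n = 3 each). Against control the differences were 1.53 at 8 h, 0.17 at 24 h and -0.97 at 48 h, each with an SE of 0.09. The 24 h difference was 0.11 without control replicate 3 and 0.27 without control replicate 1. Among all genes the 8 h difference ranked as number 2 from the highest, and the 48 h difference as number 95 from the lowest. The change between 8 h and 48 h was made up of -1.35 from 8 h to 24 h and -1.14 from 24 h to 48 h.

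**Figure D1:**
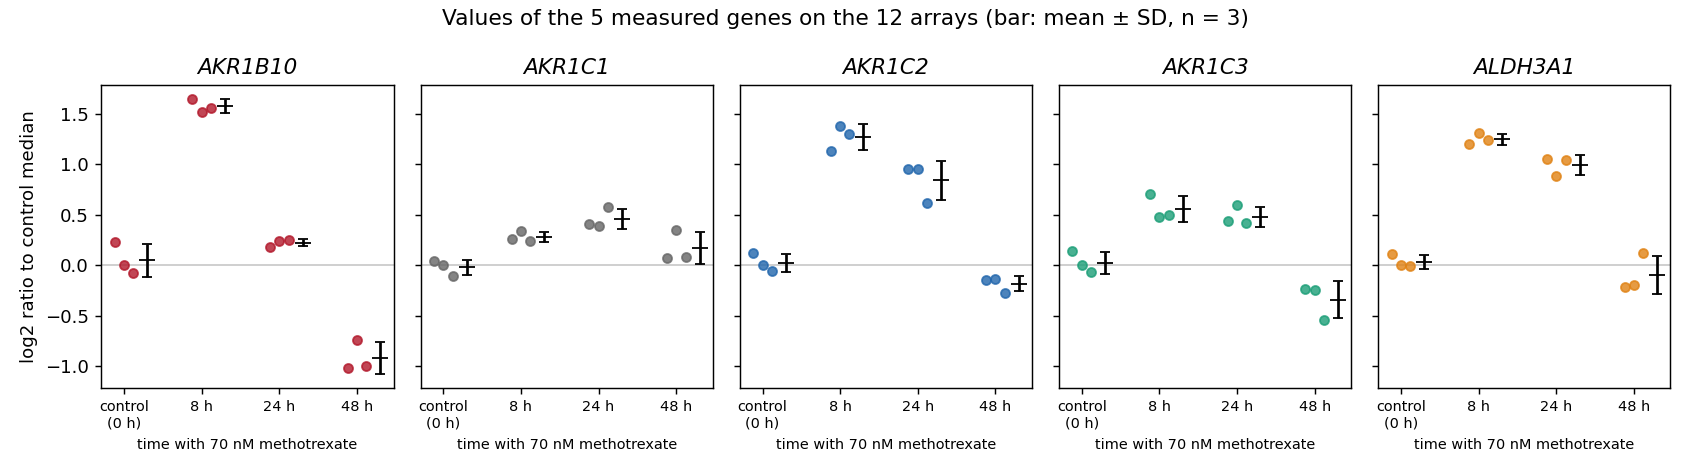
Log2 ratio to the control median on each of the 12 arrays for the 5 measured genes, with points for arrays and a black bar for the mean ± SD of a group (n = 3), in the order control, 8 h, 24 h and 48 h of 70 nM methotrexate. AKR1B10 peaks at 8 h with a mean of 1.58 and ends at -0.92 at 48 h, AKR1C2 and ALDH3A1 stay high at 24 h, and AKR1C1 is highest at 24 h with a mean of 0.46.

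AKR1C1, AKR1C2 and AKR1C3 are neighbouring hydroxysteroid dehydrogenases on chromosome 10. AKR1C1 is known for inactivating progesterone, AKR1C2 for reducing dihydrotestosterone and for binding bile acids, and AKR1C3 for making testosterone and prostaglandin F. Their promoters are shown because the 3 genes lie side by side and share much of their upstream sequence. Their measured differences varied in size, but these sizes are uncertain because their probe sets may share signal. AKR1C4, the liver enzyme of the same cluster, differed from control by at most 0.14. Whether AKR1C4 was expressed at all cannot be read from centred values. Whether promoter sequence had a part in any of these differences was not tested. The 4 windows below are the 250 bases before the transcription start, from RefSeq on GRCh38.p14, for AKR1C1 (chr10:4963165-4963414, plus strand), AKR1C2 (chr10:5003858-5004107, minus strand), the first of 2 starts of AKR1C3 (chr10:5048531-5048780, plus strand) and AKR1C4 (chr10:5196587-5196836, plus strand). The submitters' processing notes name hg19, so these positions belong to the sequences and not to the probe sets. Each is written 5′ to 3′ on the gene's strand, and capitals mark the letters ATTGG, which are the CCAAT box read on the other strand.
AKR1C1: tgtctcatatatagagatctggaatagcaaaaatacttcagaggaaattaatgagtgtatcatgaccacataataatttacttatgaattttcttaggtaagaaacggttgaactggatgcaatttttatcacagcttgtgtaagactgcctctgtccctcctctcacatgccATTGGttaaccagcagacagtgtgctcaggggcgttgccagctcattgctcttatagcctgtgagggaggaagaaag
AKR1C2: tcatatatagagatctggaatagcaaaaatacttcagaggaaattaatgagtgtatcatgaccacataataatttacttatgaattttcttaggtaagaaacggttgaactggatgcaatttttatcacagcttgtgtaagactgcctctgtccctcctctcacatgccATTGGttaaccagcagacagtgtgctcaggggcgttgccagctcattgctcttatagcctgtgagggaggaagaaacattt
AKR1C3: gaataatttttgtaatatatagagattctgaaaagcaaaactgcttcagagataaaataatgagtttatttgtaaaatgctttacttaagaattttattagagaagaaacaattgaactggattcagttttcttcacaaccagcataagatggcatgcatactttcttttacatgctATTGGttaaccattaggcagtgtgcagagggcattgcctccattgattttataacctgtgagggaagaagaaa
AKR1C4: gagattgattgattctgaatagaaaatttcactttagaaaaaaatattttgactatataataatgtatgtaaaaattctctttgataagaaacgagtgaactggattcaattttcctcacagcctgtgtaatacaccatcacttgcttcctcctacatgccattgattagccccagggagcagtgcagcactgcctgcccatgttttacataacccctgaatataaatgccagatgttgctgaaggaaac
The AKR1C1 and AKR1C2 windows were identical in 245 of 254 columns of a global alignment (96.5%). AKR1C3 matched AKR1C1 in 72.1% and AKR1C2 in 70.3% of columns, and AKR1C4 matched the other windows in 63.8% to 64%. Counting back from -1, the base before the start, ATTGG began at -77 in AKR1C1, -81 in AKR1C2 and -73 in AKR1C3, and it was absent from the AKR1C4 window. It also began at -73 in the window of AKR1C8, which lies between AKR1C3 and AKR1C4. CCAAT or ATTGG was present in 32% of all 35116 promoter windows of this length, so its presence is common. The core of the antioxidant response element, TGACNNNGC or GCNNNGTCA on the other strand, which NRF2 binds, was found in none of these 4 windows and in 10.9% of all windows. The core of the xenobiotic response element, GCGTG or CACGC, which the aryl hydrocarbon receptor binds, was likewise in none of the 4 and in 32.2% of all windows. AKR1B1 has 2 windows, not printed here, and both held CACGC, beginning at -213 and -74. Neither AKR1B1 window held the antioxidant response element core. No match says only that these letters are not in these 250 bases. The second start of AKR1C3 (chr10:5094164-5094413) also held ATTGG, beginning at -86.

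AKR1C2 followed AKR1B10 at 8 h but stayed high for longer. Its probe set (7931832) read 0.12, 0.00 and -0.05 in control, 1.13, 1.38 and 1.30 at 8 h, 0.96, 0.95 and 0.62 at 24 h, and -0.15, -0.14 and -0.27 at 48 h. The arrays at 8 h and 24 h all lay above the controls and those at 48 h all lay below them, though the last by a small margin. AKR1C2 was 2.38-fold higher at 8 h (1.25, SE 0.09) and 1.76-fold higher at 24 h (0.82). At 48 h it was 1.15-fold lower than control (-0.21). Its drop was mainly in the second interval, -0.43 between 8 h and 24 h against -1.02 between 24 h and 48 h.

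AKR1C3 had the same order of groups at a smaller scale. Its probe set (7925929) read 0.14, 0.00 and -0.07 in control, 0.71, 0.47 and 0.50 at 8 h, 0.43, 0.59 and 0.42 at 24 h, and -0.23, -0.24 and -0.55 at 48 h. All arrays at 8 h and 24 h lay above the controls, with the 8 h and 24 h arrays overlapping each other, and all 48 h arrays lay below. The gene was 1.45-fold higher at 8 h (0.54, SE 0.09), 1.37-fold higher at 24 h (0.46) and 1.29-fold lower at 48 h (-0.36). The 48 h difference was -0.26 without the array of 48 h replicate 3.

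AKR1C1 went its own way. Its probe set (7925918) read 0.04, 0.00 and -0.10 in control, 0.26, 0.34 and 0.24 at 8 h, 0.41, 0.39 and 0.57 at 24 h, and 0.08, 0.35 and 0.09 at 48 h. All 9 treated arrays lay above all 3 controls, the arrays at 24 h were the highest, and those at 48 h overlapped those at 8 h through 48 h replicate 2. The differences from control were 0.30 at 8 h (SE 0.08), 0.48 at 24 h and 0.19 at 48 h, or 1.23-fold, 1.39-fold and 1.14-fold higher. The 48 h difference was 0.10 without 48 h replicate 2 and 0.32 with array weights. The platform annotation ties this probe set to 1 accession and to 0 RefSeq transcripts, against 2 RefSeq transcripts each for AKR1C2 and AKR1C3. The transcripts of the AKR1C genes are close to identical along much of their length, so the sharing of signal among their probe sets is uncertain, and their differences in size are uncertain with it.

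ALDH3A1, which oxidises aromatic and medium-chain aldehydes and is abundant in the cornea, resembled AKR1C2. Its probe set (8013384) read 0.11, 0.00 and -0.01 in control, 1.20, 1.31 and 1.24 at 8 h, 1.06, 0.88 and 1.04 at 24 h, and -0.21, -0.19 and 0.12 at 48 h. The arrays at 8 h and 24 h lay far above the controls, and at 48 h the arrays of replicates 1 and 2 lay below them while replicate 3 did not. ALDH3A1 was 2.32-fold higher at 8 h (1.22, SE 0.08) and 1.95-fold higher at 24 h (0.96). At 48 h it was 1.09-fold lower (-0.13), and 48 h against 24 h gave -1.09, a 2.13-fold lower value. The 48 h difference from control rested on single arrays: it was -0.23 without 48 h replicate 3, -0.07 without 48 h replicate 1 and -0.08 without 48 h replicate 2, and -0.21 with array weights.

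Set beside all genes, AKR1B10, AKR1C2 and ALDH3A1 stood at the upper edge at 8 h. The same genes and AKR1C3 stood at the lower edge for 48 h minus 24 h, and AKR1C1 lay farther in both times. At 8 h all 5 lay above control without overlap and were called higher, at a limma adjusted p under 0.05 over all genes, where 24.2% of all genes were called either way, 12.1% were called higher and 20.7% lay above control without overlap. The genes were chosen with their values in all 4 groups known. Their counts and ranks in all 6 comparisons are therefore descriptions, and nothing is read from them. AKR1B10 was number 2, AKR1C2 number 6, ALDH3A1 number 8, AKR1C3 number 295 and AKR1C1 number 1209 from the highest difference. At 24 h 4 of the 5 were called higher, all but AKR1B10, against 16.7% of all genes called and 8.69% called higher. The same 4 did not overlap the controls, where 17.8% of all genes lay above them. At 48 h 2 of the 5 were called, AKR1B10 and AKR1C3, both lower, against 25.3% of all genes called and 12.3% called lower. At that time 3 of the 5 lay below control without overlap and 1, AKR1C1, above it, where 17.9% of all genes lay below and 17.9% above. The AKR1C3 call was lost without control replicate 1 (difference -0.31), which left 1 of the 5 called, and with array weights 4 of the 5 were called. The median difference of the 5 genes was 1.22 at 8 h, 0.48 at 24 h and -0.21 at 48 h, against all-gene medians of 0.02, 0.02 and 0.01 at the same times. The 3 comparisons share their control arrays.

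Between treated times the 5 genes were lower at the later time in all comparisons but 1, AKR1C1 at 24 h against 8 h. From 24 h to 48 h all 5 were called lower, where 10.1% of all genes were called and 4.86% called lower. AKR1B10 (-1.14), ALDH3A1 (-1.09), AKR1C2 (-1.02) and AKR1C3 (-0.82) ranked as numbers 2, 5, 6 and 13 from the lowest of all genes, and AKR1C1 (-0.29) as number 532. For each of the 5 genes all 48 h arrays lay below all 24 h arrays, where 12.6% of all genes did. From 8 h to 24 h AKR1B10, AKR1C2 and ALDH3A1 were called lower, where 19.4% of all genes were called and 9.4% called lower, and AKR1B10 ranked as number 4 from the lowest. AKR1C3 differed by -0.08 (-0.14 to -0.0054 with 1 array left out) and AKR1C1 by 0.18 over that interval. Without overlap, the same 3 genes lay below their 8 h values and AKR1C1 above, where 16.6% of all genes lay below and 16.7% above. At 48 h against 8 h 4 of the 5 were called lower, all but AKR1C1 (-0.11, and 0.0189 with array weights), where 29.7% of all genes were called and 14.4% called lower. The same 4 lay below without overlap, as did 19.5% of all genes. AKR1B10 had the lowest difference of all 18377 genes in this comparison, -2.49 or 5.63-fold lower. The call of ALDH3A1 at 24 h against 8 h was kept only when 48 h replicate 1 or 3 was the array left out. That of AKR1C1 at 48 h against 24 h was lost without 24 h replicate 1, 24 h replicate 3, 48 h replicate 1 or 48 h replicate 3, and with array weights.

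**Figure D2:**
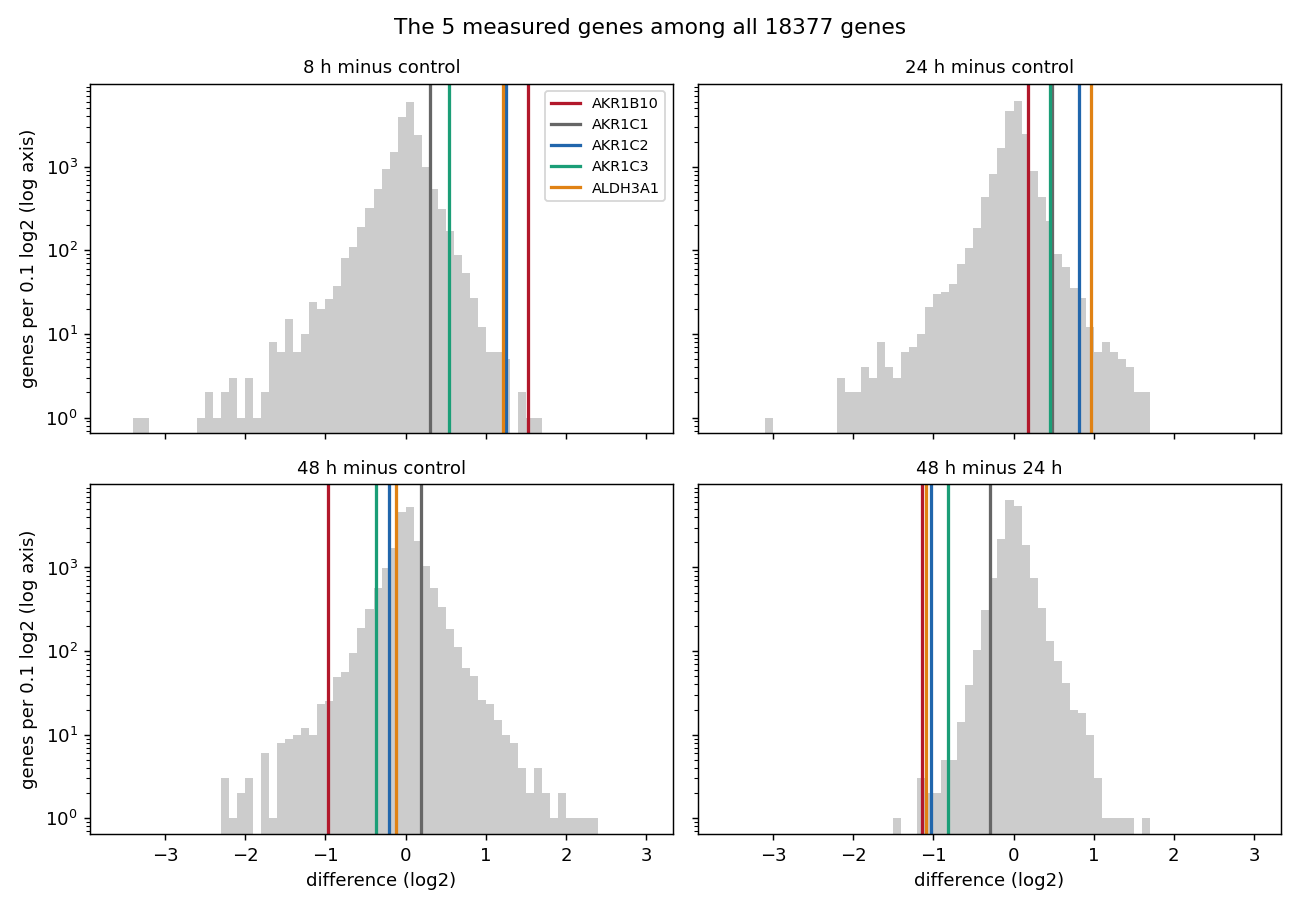
Distribution of the differences of all 18377 genes (histogram, number of genes on a log axis) in 4 comparisons, 8 h, 24 h and 48 h minus control and 48 h minus 24 h, with the 5 genes marked on the log2 scale. AKR1B10, AKR1C2 and ALDH3A1 lie at the upper edge at 8 h, and AKR1B10, ALDH3A1, AKR1C2 and AKR1C3 at the lower edge for 48 h minus 24 h.

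Genes beside the 5 on the chromosomes were looked up in RefSeq gene order, a choice made after their values were seen. On chromosome 10 the measured genes ran in the order AKR1E2, AKR1C6P, AKR1C1, AKR1C2, AKR1C3, AKR1C8, AKR1C4, UCN3, TUBAL3 and NET1. The differences of AKR1C8 (0.04 at 8 h, 0.02 at 24 h, -0.05 at 48 h) and AKR1C4 (0.14, 0.07 and 0.02) were small, and neither passed the test at any time. AKR1E2, at the other end of the cluster, rose at 48 h (0.38, SE 0.06, limma adjusted p = 0.000333) and did not share the 8 h difference (-0.04, adjusted p = 0.757). The pseudogene AKR1C6P differed by 0.13 at 8 h (limma adjusted p = 0.114), 0.18 at 24 h (adjusted p = 0.0341) and 0.06 at 48 h (adjusted p = 0.506). UCN3, TUBAL3 and NET1 passed the test at no time.

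Around ALDH3A1 on chromosome 17 the related gene ALDH3A2, which oxidises long-chain fatty aldehydes, rose at 8 h (0.54, SE 0.06, limma adjusted p = 1.93e-05) and fell at 48 h (-0.40, adjusted p = 0.000180). At 24 h ALDH3A2 was back at control (-0.06, limma adjusted p = 0.578) where ALDH3A1 was still 0.96 above it. SLC47A2, which lies between these genes in the order of measured genes, differed by 0.12, 0.13 and -0.01 at 8 h, 24 h and 48 h and passed the test at none. ULK2 and AKAP10, on the other side of ALDH3A1, differed by -0.09 and -0.25 at 8 h (limma adjusted p = 0.254 and 0.150) and passed the test at no time. Next to AKR1B10 on chromosome 7, the nucleotide sugar transporter SLC35B4 rose at 8 h (0.35, limma adjusted p = 0.0122) and fell at 48 h (-0.28, adjusted p = 0.0351). BPGM, the bisphosphoglycerate mutase on the other side, rose at 8 h (0.27, limma adjusted p = 0.00508) and differed by 0.01 at 24 h and 0.02 at 48 h. LRGUK and CALD1, one gene farther out on each side, differed by -0.08 and -0.06 at 8 h (limma adjusted p = 0.266 and 0.617) and passed the test at no time.

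**Figure D3:**
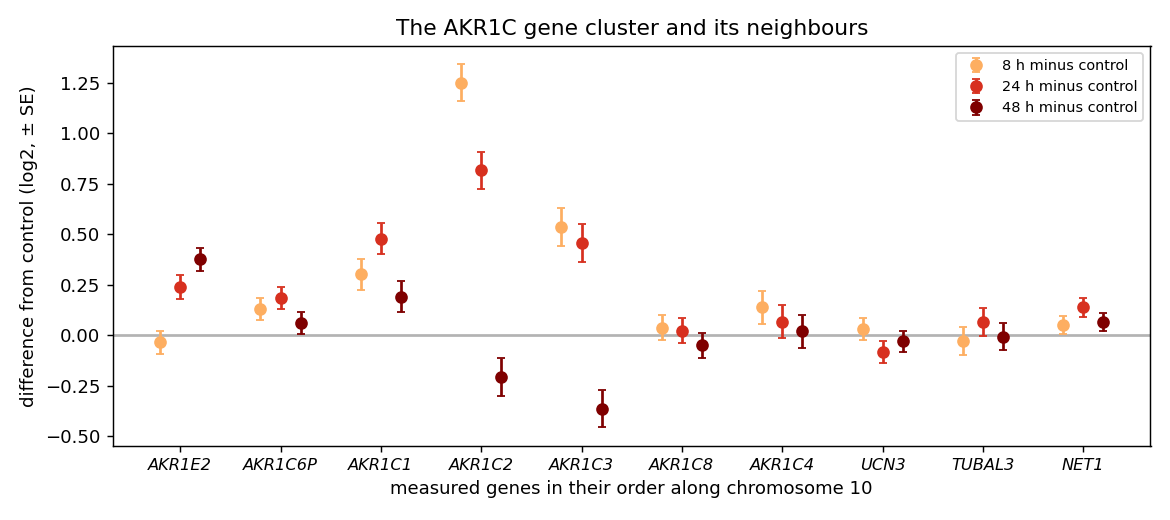
Difference from control on the log2 scale at 8 h, 24 h and 48 h for the 10 measured genes of the AKR1C region of chromosome 10, in gene order, with error bars of 1 SE. AKR1C1, AKR1C2 and AKR1C3 stand above their neighbours at 8 h and 24 h, where AKR1C2 reaches 1.25 and 0.82, while AKR1C8 and AKR1C4 stay within 0.14 of control.

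For each of the 5 genes the 3 genes with the most similar pattern were found by Pearson correlation over the 12 arrays, among genes whose group means spanned at least 0.5. The arrays share the 4 groups, so these correlations describe the group pattern and carry no test. AKR1B10 was most like CTSC, the protease cathepsin C (r = 0.989), RANBP1, a partner of the Ran GTPase (r = 0.989), and NCL, the nucleolar protein nucleolin (r = 0.987). Those 3 genes were also above control at 8 h and below it at 48 h, by smaller amounts. CTSC differed from control by 0.49, 0.07 and -0.37 at 8 h, 24 h and 48 h. ALDH3A1 and AKR1C2 had the same first gene, SRXN1, the sulfiredoxin that repairs oxidised peroxiredoxins (r = 0.982 with ALDH3A1 and 0.973 with AKR1C2), which differed from control by 0.63, 0.38 and -0.10. ALDH3A1 was next most like COTL1 (r = 0.966) and APEX2 (r = 0.941), and AKR1C2 like HPRT1 of purine salvage (r = 0.950) and DPY19L1 (r = 0.946). AKR1C3 was most like PBDC1 (r = 0.970), GSR, the glutathione reductase (r = 0.967), and the nuclear import factor IPO5 (r = 0.964). AKR1C1 had the weakest likenesses, MND1 of meiotic recombination (r = 0.869), the mitochondrial motor MYO19 (r = 0.862) and the adhesion molecule CEACAM5 (r = 0.860). CEACAM5 differed from control by 0.50, 0.79 and 0.15, with its maximum at 24 h as in AKR1C1.

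NRF2 is held back by KEAP1 and, once free, pairs with small MAF proteins to drive genes of glutathione, thioredoxin and NADPH supply. Of 34 listed targets and partners 30 were measured. At 8 h 16 rose, 6 fell and 8 did not pass the test, with a median of 0.19 against 0.02 for all genes. The 6 that fell were SLC7A11 and the factors NFE2L2, NFE2L1, MAFF, MAFG and BACH1, and KEAP1 was among the 16 that rose. The counts thus pool targets with partners. At 24 h 11 rose and 3 fell (median 0.13), and at 48 h 4 rose and 9 fell (median 0.01 against 0.01 for all genes). With array weights the 13 called genes at 48 h became 22, while the calls over all genes rose from 4649 to 7455. Without weights 24.2%, 16.7% and 25.3% of all genes were called at 8 h, 24 h and 48 h. Of all genes 12.1% were called higher at 8 h, 8.69% higher at 24 h and 12.3% lower at 48 h. At 24 h the count of 14 called genes was 9 without 24 h replicate 3.

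Several genes of glutathione and peroxide defence rose at 8 h. GCLM and GCLC, the subunits of the enzyme that makes the glutathione precursor, rose by 0.95 (SE 0.11, limma adjusted p = 4.59e-05) and 0.73 (SE 0.07, adjusted p = 1.10e-05). SRXN1 and GSR, which are on this list but were named for their likeness to ALDH3A1, AKR1C2 and AKR1C3, differed from control by 0.63 and 0.30 at 8 h, and their values carry no p here for that reason. NMRAL2P, a transcribed pseudogene known as an NRF2 target, rose at all 3 times, by 1.48 at 8 h (SE 0.07, limma adjusted p = 3.27e-08), 1.41 at 24 h and 1.10 at 48 h (adjusted p = 3.38e-07). It was therefore still high at 48 h, when none of AKR1B10, AKR1C2, AKR1C3 and ALDH3A1 was above its control mean.

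Other listed genes had other patterns. NQO1, the quinone reductase often used to read NRF2 activity, differed by 0.09 at 8 h (SE 0.05, limma adjusted p = 0.213) and -0.05 at 24 h (adjusted p = 0.558), and fell by 0.28 at 48 h (adjusted p = 0.000439). SLC7A11, the cystine importer, fell at all 3 times, by 0.41 at 8 h (limma adjusted p = 0.00468), 0.64 at 24 h (adjusted p = 0.000307) and 1.75 at 48 h (SE 0.09, adjusted p = 2.95e-08). At 48 h ME1, the malic enzyme that makes NADPH, fell by 0.46 (limma adjusted p = 1.00e-05). GCLM at 48 h differed by 0.20 (limma adjusted p = 0.246), and by an amount that passed the test without 48 h replicate 3 (adjusted p = 0.00167), as GCLC did (0.12, adjusted p = 0.309 with all arrays and 0.0294 without it). The transcript of NRF2 itself, NFE2L2, fell by 0.26 at 8 h (limma adjusted p = 0.0401), 0.28 at 24 h (adjusted p = 0.0417) and 0.43 at 48 h (adjusted p = 0.00211). Its 8 h call was lost without any 1 of 7 arrays (the 3 controls, 8 h replicates 2 and 3, 24 h replicate 3 and 48 h replicate 2, adjusted p up to 0.142). Its 24 h call was lost without any 1 of the same arrays or 24 h replicate 1 (limma adjusted p up to 0.190). KEAP1 rose by 0.27 at 8 h (limma adjusted p = 0.0162, and 0.0716 to 0.0729 without 8 h replicate 1 or control replicate 3) and 0.38 at 24 h (adjusted p = 0.00348), and differed by 0.21 at 48 h (adjusted p = 0.0517, and 0.0448 with the replicate number as a block). The antioxidant response element core was present upstream of 7 of the 25 listed genes that have a window in the promoter table. A gene counted if any of its windows held the core, so this count cannot be set beside the 10.9% of single windows.

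**Figure D4:**
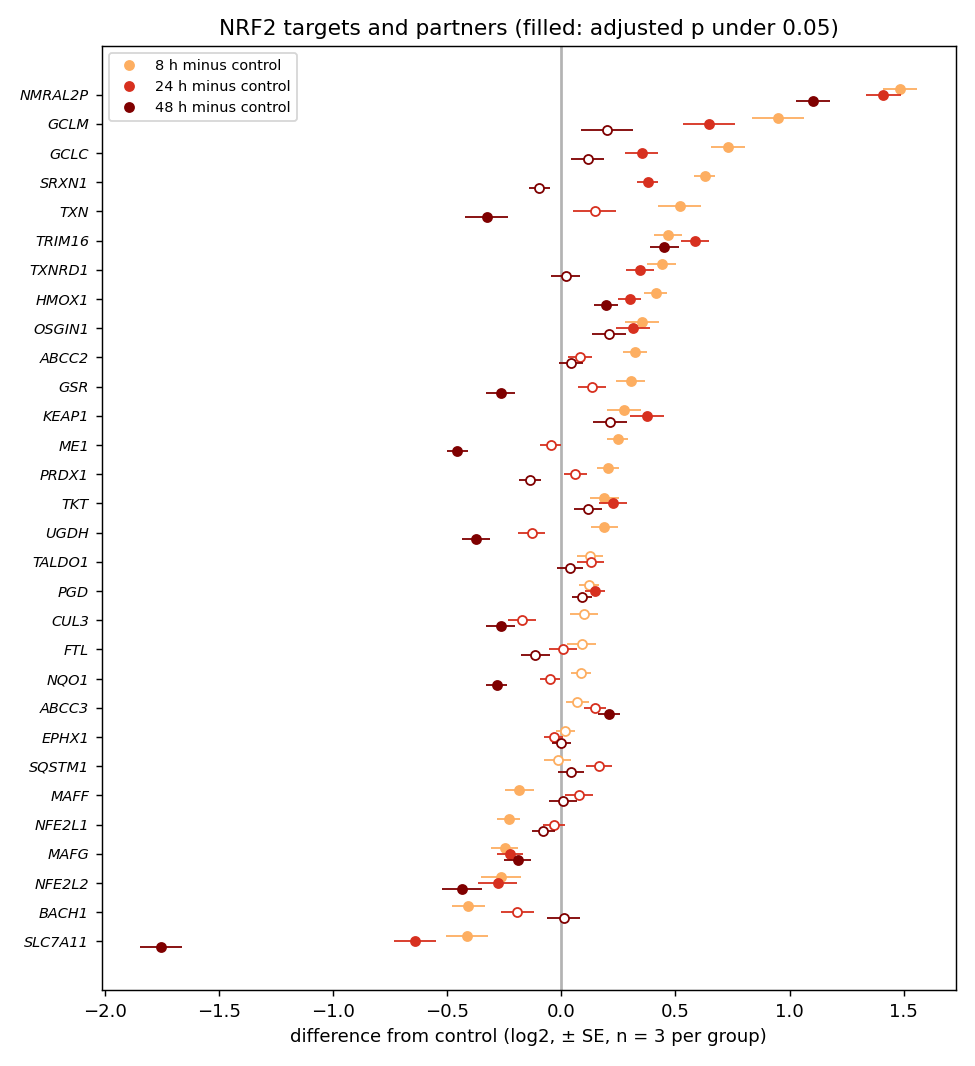
Difference from control on the log2 scale at 8 h, 24 h and 48 h for the 30 measured NRF2 targets and partners, with error bars of 1 SE and filled points where the limma adjusted p is under 0.05. At 8 h 16 genes rose and 6 fell, NMRAL2P stayed at 1.10 or more at each time, and SLC7A11 reached -1.75 at 48 h.

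The aryl hydrocarbon receptor, AHR, pairs with ARNT to induce CYP1 enzymes of xenobiotic oxidation. Of 11 listed genes 8 were measured, with 1 up and 4 down at 8 h, 1 up and 2 down at 24 h, and 2 up and 3 down at 48 h. The medians were -0.12, -0.05 and -0.06, against 0.02, 0.02 and 0.01 for all genes, of which 24.2%, 16.7% and 25.3% were called. CYP1A1 rose at every time, by 0.47 at 8 h (SE 0.07, limma adjusted p = 0.000235), 0.59 at 24 h (adjusted p = 5.74e-05) and 0.97 at 48 h (adjusted p = 4.98e-07). CYP1B1 moved the other way, falling by 0.37 at 8 h (SE 0.09, limma adjusted p = 0.00961), 0.65 at 24 h (adjusted p = 0.000273) and 0.43 at 48 h (adjusted p = 0.00330). Its 8 h call was lost without 8 h replicate 3 (limma adjusted p = 0.0501). AHR fell by 0.39 at 8 h (SE 0.08, limma adjusted p = 0.00282) and differed by -0.24 at 24 h (adjusted p = 0.0588) and -0.07 at 48 h (adjusted p = 0.634). The 8 h count of 5 called genes was 2 without 8 h replicate 3 and 3 without 8 h replicate 2, control replicate 1 or control replicate 2. NFE2L2 and NQO1 stand in both lists.

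Of 12 other aldo-keto reductases listed, 9 were measured, and 2 of the 9 were called at each time, beside 24.2%, 16.7% and 25.3% of all genes called at 8 h, 24 h and 48 h. Of these, 1 rose and 1 fell at 8 h, and 2 rose at 24 h and at 48 h, where none fell (limma, with 0 and 1 lower genes at an unadjusted p under 0.05). Their medians were -0.00, 0.02 and 0.02, close to those of all genes. AKR7A3, a reductase of aflatoxin dialdehyde, fell by 0.45 at 8 h (SE 0.07, limma adjusted p = 0.000565) and differed by -0.14 at 24 h and -0.17 at 48 h. KCNAB2, a potassium channel subunit with an aldo-keto reductase fold, rose by 0.22 at 8 h (limma adjusted p = 0.0385), 0.40 at 24 h (adjusted p = 0.00170) and 0.52 at 48 h (adjusted p = 0.000141). The 8 h call of KCNAB2 was lost without any 1 of 7 arrays (8 h replicates 1 and 2, 24 h replicates 1 and 3, 48 h replicate 2, control replicates 2 and 3, limma adjusted p = 0.0507 to 0.158). It was also lost with each array centred on its median and with only the 2 groups fitted. The 24 h call of AKR1E2 (0.24, adjusted p = 0.0123) was lost without 24 h replicate 3 (adjusted p = 0.0649).

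The other aldehyde dehydrogenases were split. All 18 listed genes were measured. Of these, 4 rose and 5 fell at 8 h, 3 rose and 2 fell at 24 h, and 4 rose and 7 fell at 48 h. Their medians were -0.00, -0.02 and -0.09, against 0.02, 0.02 and 0.01 for all genes, of which 24.2%, 16.7% and 25.3% were called. ALDH1B1, a mitochondrial enzyme known in colon tumours, rose by 0.57 at 8 h (SE 0.05, limma adjusted p = 5.27e-06) and fell by 0.21 at 48 h (adjusted p = 0.00839), the order of signs seen for ALDH3A2. ALDH3B1, which acts on lipid-derived aldehydes, differed by -0.09 at 8 h (limma adjusted p = 0.390) and rose by 0.68 at 24 h (adjusted p = 5.97e-06) and 0.81 at 48 h (adjusted p = 6.62e-07). ALDH1A1, which makes retinoic acid, differed by 0.10 at 8 h (limma adjusted p = 0.170) and fell by 0.64 at 48 h (SE 0.05, adjusted p = 6.24e-07). ALDH2, the mitochondrial enzyme of acetaldehyde oxidation, fell by 0.48 at 8 h (limma adjusted p = 0.000128) and 0.41 at 48 h (adjusted p = 0.000376). ALDH6A1, of valine breakdown, fell by 0.52 at 8 h (limma adjusted p = 2.39e-05). The 8 h count of 9 called genes was 5 without 8 h replicate 3 or control replicate 1. The 24 h count of 5 was 2 without control replicate 1 and 3 without 24 h replicate 1, 24 h replicate 3 or control replicate 2, and 8 with array weights.

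The short-chain dehydrogenases are a separate family that also reduces carbonyls, among them retinal, steroids and prostaglandins. Of 31 listed genes 28 were measured. Of these, 7 rose and 6 fell at 8 h, 6 rose and 7 fell at 24 h, and 5 rose and 7 fell at 48 h. Their medians were 0.02, 0.00 and -0.03, against 0.02, 0.02 and 0.01 for all genes, of which 24.2%, 16.7% and 25.3% were called. DHRS9, an oxidoreductase of retinol and steroids, rose at all 3 times, by 0.70 at 8 h (SE 0.10, limma adjusted p = 0.000191), 1.24 at 24 h (adjusted p = 2.34e-06) and 0.81 at 48 h (adjusted p = 5.54e-05). DHRS3, which reduces retinal as AKR1B10 does, fell by 0.95 at 8 h (SE 0.06, limma adjusted p = 1.31e-07) and 0.25 at 24 h (adjusted p = 0.00715), and differed by -0.09 at 48 h. HSD17B2, which inactivates oestradiol and testosterone, fell at all 3 times, by 0.60 at 8 h (limma adjusted p = 5.29e-05), 0.49 at 24 h and 0.39 at 48 h (adjusted p = 0.00129). HSD17B12, of fatty acid elongation, fell by 0.61 at 48 h (limma adjusted p = 1.64e-05) and DHRS1 rose by 0.70 (adjusted p = 1.71e-05).

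AKR1B1, the aldose reductase, opens the polyol pathway and answers to osmotic stress, so genes of both were listed beside it. Of 8 listed genes 7 were measured. At 8 h 4 rose and 1 fell (median 0.34), at 24 h 1 rose and 1 fell (median 0.03), and at 48 h 3 rose and 1 fell (median 0.14). The medians of all genes were 0.02, 0.02 and 0.01, and 24.2%, 16.7% and 25.3% of all genes were called. The inositol importer SLC5A3 rose by 0.67 at 8 h (SE 0.09, limma adjusted p = 0.000194) and 0.99 at 48 h (adjusted p = 6.48e-06), and differed by 0.15 at 24 h (adjusted p = 0.359). The chaperone HSPA4L rose by 0.62 at 8 h (SE 0.10, limma adjusted p = 0.000401), and NFAT5, the transcription factor of the osmotic response, rose by 0.55 at 48 h (SE 0.10, adjusted p = 0.000772). SLC38A2, an amino acid importer, fell at all 3 times, by 0.50, 0.39 and 0.47 (limma adjusted p = 0.000305, 0.00304 and 0.000447). KHK, the fructokinase, rose by 0.39 at 8 h (limma adjusted p = 0.00215). Its 24 h call (0.26, limma adjusted p = 0.0351) was lost without 24 h replicate 1, 24 h replicate 3, control replicate 2 or control replicate 3 (adjusted p = 0.101 to 0.153), which left 1 of the 2 calls at that time.

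Because levels were removed by the centring, whether markers of colon epithelium were expressed could not be read. Changes of markers cannot check the label of the line, since genes absent from the cells would give no calls either way. Of 10 colon epithelial markers KRT19 rose at 8 h (0.26, limma adjusted p = 0.0248) and at 24 h (0.41, adjusted p = 0.00264), and KRT20 rose at 24 h (0.53, adjusted p = 9.47e-06) and at 48 h (0.51, adjusted p = 6.99e-06). No other epithelial marker passed the test. By limma 0 of 8 fibroblast markers and 0 of 7 leukocyte and endothelial markers were called at any time. At an unadjusted p under 0.05 there were 2 fibroblast markers at 24 h, both higher, and 1 leukocyte or endothelial marker at 48 h, lower. Whether these marker changes had a part in the differences of the 5 genes was not tested.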

How the data were processed

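RNA of the 12 cultures was hybridised to Affymetrix human gene arrays. Each array has 1 deposited log2 value per probe set, and the submitters' processing notes name RMA (background correction, normalization between arrays and summary of probes) and hg19, without versions. For all 28869 probe sets the 3 control arrays had a median of exactly 0. Who centred the values, and how, is not stated in the labels, and base 2 is assumed because RMA uses it. Centring leaves differences as they were but removes levels and signal over background. The number of arrays limits the precision.

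Of the probe sets, 19310 named 1 gene in the platform annotation, 1752 several and 7807 none here. A gene is the mean of its single-gene probe sets (685 of 18377 genes had several). Symbols were updated in 0 cases, and 31 gene IDs were not in the gene table. All 12 arrays entered a single fit of group means with limma 3.58.1 in R 4.3.3 (lmFit, contrasts.fit, eBayes; 8 residual and 4.71 prior degrees of freedom), and 6 comparisons were made. Tests were two-sided, with Benjamini-Hochberg adjustment over all 18377 genes and a call at an adjusted p under 0.05. The fit was run on simulated data with independent arrays of equal spread, so correlation between arrays and unequal array spread were not covered. No filter on low values was possible.

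The 6 genes and the gene lists were chosen with earlier results of these data known, so the 6 genes carry no p, no list was tested as a set, and list counts are descriptions beside the share of all genes called. The genes to name were the 6 genes, the 3 most similar genes of each, up to 3 called genes with the largest difference per list and comparison (or, with fewer than 2 calls, the 2 genes of smallest p) and NFE2L2, KEAP1, NQO1, GCLM and AHR. Some were left out for length. The chromosomal neighbours and the epithelial markers KRT19 and KRT20 stand outside this rule and were chosen after their values were seen. The same holds for NFE2L1, MAFF, MAFG and BACH1 of the NRF2 list. As alternatives, the fit was repeated with a replicate block, with weighted arrays, with each array centred on its median, on the 2 compared groups alone, per probe set, and without each array in turn. The main fit has no replicate block. Deviations of same-numbered arrays from their group means correlated between -0.452 and 0.472, and all 3 pairs were over 0.1 for 48 h against control (0.349, 0.117 and 0.458) and in none of the other 5 comparisons. Promoters were the 250 bases before each RefSeq start (GRCh38.p14). Of the 6 genes, 4 had a window (AKR1B1, AKR1C1, AKR1C2 and AKR1C3), and those of AKR1B1 were searched but not printed. AKR1B10 and ALDH3A1 had no window, and the planned protein comparison was not made. The search for the CCAAT box was added after the data were seen. Sequences were aligned with Biopython 1.88, and figures drawn with Python 3.11.15, matplotlib 3.10.9, numpy 2.4.6 and pandas 2.3.3.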

Additional observations from a re-analysis of the deposited data

Results flagged for a closer look

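Among 51 named genes checked, 18 had all 3 arrays at 8 h and all 3 at 48 h on opposite sides of all 3 controls. Of all 18377 genes, 3.63% lay above control at 8 h and below it at 48 h in this way, and 3.1% the other way round. The named genes were chosen for large differences or for likeness to the measured genes, so the count among them is a description. Of the 18, 3 are AKR1B10, AKR1C2 and AKR1C3, above control at 8 h and below it at 48 h. Their differences at 48 h against 8 h were -2.49 for AKR1B10, -1.46 for AKR1C2 and -0.90 for AKR1C3, and the difference was not tested, since the genes were chosen with these values known.

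The same crossing was seen in genes named from the lists. The flag already required their 8 h and 48 h arrays to lie apart, so these differences carry no test. At 48 h against 8 h ALDH3A2 differed by -0.94, ALDH1B1 by -0.77 and ALDH1A1 by -0.74. Of the NRF2 list, ME1 differed by -0.70 and NQO1 by -0.37. Of these, ALDH1A1 and NQO1 did not pass the test against control at 8 h (limma adjusted p = 0.170 and 0.213). A further 7 were picked for resembling one of the measured genes, so their crossing follows from the choice and carries no test. These differed by -0.86 (CTSC), -0.72 (SRXN1), -0.68 (NCL), -0.61 (IPO5), -0.57 (GSR), -0.56 (PBDC1) and -0.53 (RANBP1).

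The arrays of ALDH3B1, NFAT5 and AKR1E2 lay below control at 8 h and above it at 48 h. These genes differed by 0.90, 0.70 and 0.41 at 48 h against 8 h, again with no test. None of them passed the test against control at 8 h (limma adjusted p = 0.390, 0.349 and 0.757).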

How the results depend on the processing

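None of the 360 differences of the 5 genes with 1 array left out changed sign or moved by more than the replicate spread. This was fixed in advance where the array left out belonged to a group not compared, since it cannot change a difference of group means. AKR1B10 against control ranged from 1.46 to 1.62 at 8 h and from -1.06 to -0.88 at 48 h. Under the other alternatives 142 such differences stayed within that spread, 7 moved, all with array weights, and 1 reversed. The replicate block, the fits of only the 2 groups and the fit per probe set cannot change these differences. The counts therefore say little on stability. With array weights AKR1C1 at 48 h minus 8 h was 0.0189 in place of -0.11, and the calls at 48 h against control came to 4 of the 5 genes (2 without weights), 22 of the NRF2 list (13) and, at 24 h, 8 other aldehyde dehydrogenases (5). Weights raised the calls over all genes to 6585 at 8 h (4439 without), 6079 at 24 h (3070), 7455 at 48 h (4649), 5901 for 48 h minus 24 h (1860) and 8569 for 48 h minus 8 h (5464), and the cause was not tested. Centring, and fits of only the 2 groups, left 1 other aldo-keto reductase at 8 h in place of 2.

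With 1 array left out, called genes numbered 1 to 3 of the 5 at 48 h. For the lists they numbered 1 to 2 (other aldo-keto reductases at 8 h and at 24 h), 5 to 10 and 2 to 6 (other aldehyde dehydrogenases at 8 h and 24 h), 9 to 18 (NRF2 list at 24 h), 2 to 5 (aryl hydrocarbon receptor list at 8 h) and 1 to 2 (polyol list at 24 h). Signs of differences near 0 turned for APEX2 at 48 h (-0.0213), HSPA4L (-0.0384) and NFAT5 (-0.0012) at 24 h with array weights, and DHRS1 at 8 h with centring (-0.0055). With 1 array left out they turned for DHRS1 at 8 h (range -0.0172 to 0.0299), HSPA4L (-0.0362 to 0.0768) and NFAT5 (-0.00807 to 0.123) at 24 h, and AHR (-0.104 to 0.00119) and DPY19L1 (-0.000449 to 0.0574) at 48 h. With the replicate block the 5 genes had the same numbers of calls, 5, 4 and 2 against control at 8 h, 24 h and 48 h, and over all genes the calls were 4718, 3390 and 5006. The block added calls of KEAP1 (adjusted p = 0.0448) and ALDH6A1 (0.0473) at 48 h, where all 3 same-number correlations were over 0.1, and of AHR (0.0268) at 24 h, where 1 was not.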
